A study of Homo sapiens with 5 samples.

Results

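Raji, a B-lymphoblastic cell line, was compared with 4 other blood cell lines across 139 of the 654 human miRNAs on an nCounter panel, which counts a color-coded reporter for each miRNA without amplification. A miRNA entered the comparison when its normalized count was above the background threshold in Raji, which held for 111, or in all 4 other lines but not in Raji, which held for 28. Of the 139, 88 were above the threshold in every line.

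The other lines were Meg01 (megakaryoblastic), Jurkat (T-lymphoblastic), U937 (monocytic) and K562 (erythroleukemic). All 5 are established transformed lines with no treatment given in the labels, and each contributed 1 sample of 100 ng total RNA extracted with Trizol. There were no replicates, so no difference was tested, and the 95% intervals below cover counting error only. The 4 comparisons share the single Raji sample and are therefore not independent of each other.

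miRNAs are short RNAs that guide Argonaute proteins to messenger RNAs, mostly through the seed at bases 2 to 8, and reduce the output of those messages. Members of a family share a seed and can therefore bind many of the same targets. In B-cells, miR-155 and miR-146a are known for their induction by activation and by Epstein-Barr virus (EBV) proteins, and miR-223 is known as a miRNA of the myeloid lineages. Raji was derived from a Burkitt lymphoma and carries EBV.

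The mature sequences of the miRNAs on which the results turn are given from RefSeq (GRCh38.p14), 5′ to 3′ with the seed in capitals. The panel listed most of these miRNAs without an arm, and the arm shown is the common one. The first set opens with 3 miRNAs of lymphocyte activation and ends with the miR-29 seed family, whose members diverged between Raji and Jurkat.
miR-21: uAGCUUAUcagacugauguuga
miR-155: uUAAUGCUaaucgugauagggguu
miR-146a: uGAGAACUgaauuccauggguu
miR-29a: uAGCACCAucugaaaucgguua
miR-29b: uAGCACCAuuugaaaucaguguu
miR-29c: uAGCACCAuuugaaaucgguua

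The second set holds members of the let-7 family, by which Raji was set apart from Meg01 and K562. It also holds members of the miR-15/16 family, by which Raji was set apart mainly from Meg01.
let-7g: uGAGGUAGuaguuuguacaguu
let-7i: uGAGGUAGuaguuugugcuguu
let-7d: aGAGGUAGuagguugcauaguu
miR-15a: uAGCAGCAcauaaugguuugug
miR-16: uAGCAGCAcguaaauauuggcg

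The third set was low or not above background in Raji, except miR-222. That miRNA was only just above the threshold and is shown because it shares the seed of miR-221.
miR-223: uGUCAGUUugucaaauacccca
miR-340: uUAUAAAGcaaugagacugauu
miR-23a: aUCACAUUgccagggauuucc
miR-24: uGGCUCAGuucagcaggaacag
miR-221: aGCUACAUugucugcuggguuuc
miR-222: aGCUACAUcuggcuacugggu
miR-126: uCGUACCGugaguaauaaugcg

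Normalized counts are raw counts multiplied by 1 factor per line, set by the 100 miRNAs with the highest mean count. Raji had the fewest human counts, 66892 against 94027 to 130048, and its factor was the largest. The scaling therefore raised background as well, and the mean normalized count of the 8 negative control probes in Raji was 2.42-fold that in Meg01, 1.99-fold that in Jurkat, 1.68-fold that in U937 and 1.47-fold that in K562. The threshold, the mean plus 2 SD of these controls, stood at 72.4 normalized counts in Raji (45.9 raw counts) and at 28.2 to 42.3 in the other lines. In every ratio a value at or below its line's threshold was entered at the threshold, so that the ratio is then a bound, written as at least. A miRNA was counted as higher or lower when the ratio passed 2-fold.

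Raji was over 2-fold higher than Meg01 for 59 of the 139 miRNAs (42.4%) and lower for 15 (10.8%). Against Jurkat, 35 (25.2%) were higher and 12 (8.63%) lower. Against U937, the line nearest to Raji by these counts, 27 (19.4%) were higher and 7 (5.04%) lower. Against K562, 29 (20.9%) were higher and 23 (16.5%) lower. Among those counted as higher, 8 against Meg01 and 3 against Jurkat were not above the threshold of Raji. Leaving them out gave 51 and 32. Counting only miRNAs above the threshold in both lines gave 37 for Meg01, 27 for Jurkat, 20 for U937 and 22 for K562. The miRNAs that entered because Raji was above its threshold favor higher values in Raji by the way they were chosen. Counting intervals were computed from the counts as measured, with no threshold entered. They lay wholly above 2 for 25, 11, 8 and 15 of the higher miRNAs in Meg01, Jurkat, U937 and K562, in that order. For the lower ones they lay wholly beyond 2-fold for 13, 9, 7 and 18. Of the higher ratios 22, 8, 7 and 7 were bounds, and of the lower ones 7, 3, 6 and 7. The median log2 ratio over all 139 miRNAs was 0.89, 0.45, 0.58 and 0.37 in the same order. The balance of higher and lower miRNAs depended on the normalization. Without scaling, 11, 5, 7 and 12 were higher and 32, 42, 24 and 30 lower in that order. With the total human counts more stayed higher than lower against each line.

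**Figure D1:**
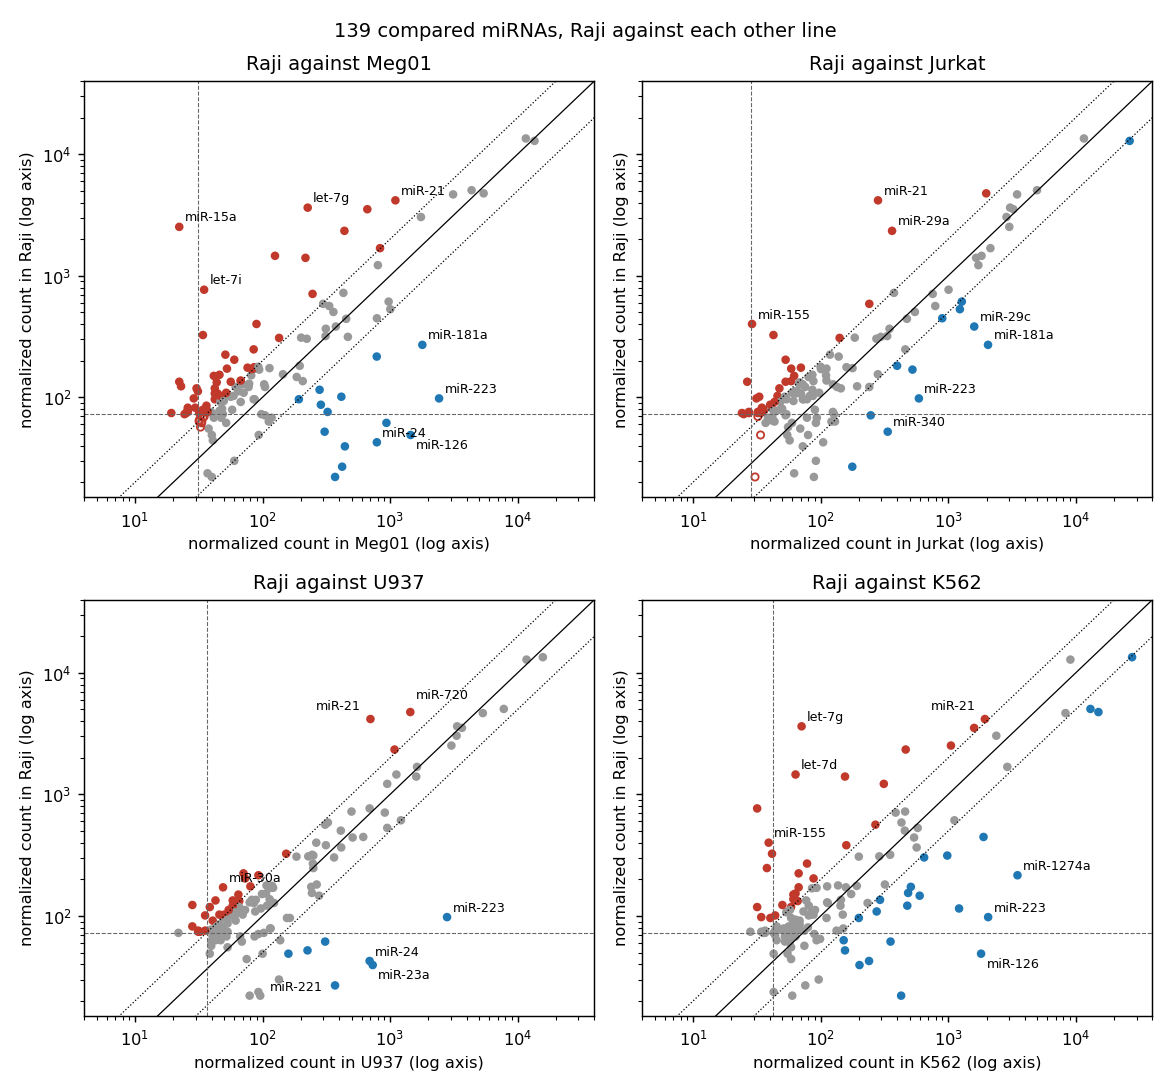
Normalized count in Raji (y axis, log) against that in each other line (x axis, log) for the 139 compared miRNAs, 1 sample per line. Red and blue mark miRNAs over 2-fold higher and lower in Raji, open red circles those counted as higher but not above the threshold of Raji, dashed lines the thresholds and dotted lines a 2-fold difference. Most red points against Meg01, Jurkat and U937 crowd near the thresholds, while miR-223 lies far below the diagonal in all 4 panels.

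Most of the miRNAs higher in Raji than Meg01, Jurkat or U937 were weakly counted. For the 72 miRNAs with a mean of under 100 raw counts over the 5 lines, the median log2 ratio of Raji over the other line was 1.12 for Meg01, 0.83 for Jurkat, 0.83 for U937 and 0.56 for K562. The log2 ratio of the negative controls themselves was 1.27, 0.99, 0.75 and 0.56 in the same order. For the 52 miRNAs between 100 and 1000 mean counts the medians were 0.19, 0.06, 0.27 and -0.17. For the 15 with 1000 or more they were 0.58, 0.02, -0.06 and 0.35. The weak group held 43 of the 59 miRNAs higher than Meg01, 24 of 35 for Jurkat, 21 of 27 for U937 and 14 of 29 for K562, and only 1 lower miRNA, against U937. The part of the background of Raji in these counts was not tested.

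**Figure D2:**
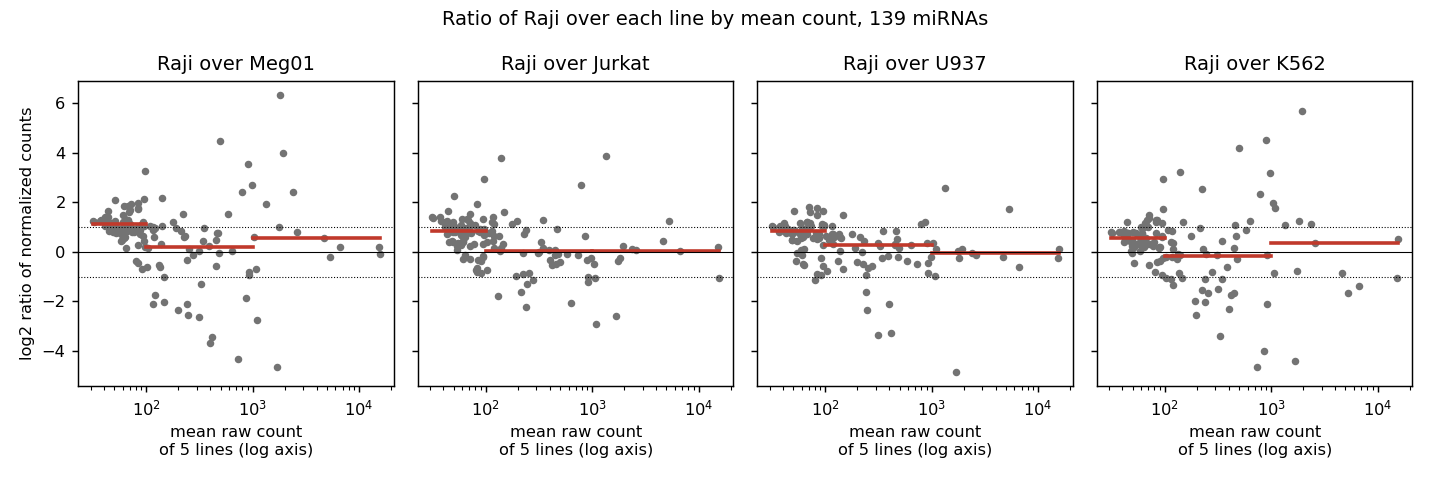
Log2 ratio of normalized counts of Raji over each line (y axis) against the mean raw count of the 5 lines (x axis, log) for 139 miRNAs. Red bars are the medians of the miRNAs under 100, from 100 to 1000 and at 1000 or more mean counts, and the dotted lines mark 2-fold. The first bar lies above 0 in all 4 panels, at 0.56 to 1.12.

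The ratios also depend on what is held equal between lines. Relative to the normalization used here, the log2 ratios of all miRNAs dropped by 0.37 (K562) to 1.09 (Meg01) without scaling. They dropped by 0.30 to 0.96 with scaling to the positive controls and dropped by 0.62 to 1.10 with scaling to the housekeeping probes. Scaling to the total human counts moved them by -0.38 for Meg01, -0.01 for Jurkat, -0.11 for U937 and 0.29 for K562. Ranks within a line do not change with scaling and are given below where they bear on a result.

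The profile of Raji was led by miR-92a with 8533 raw counts and miR-142-3p with 8151. miR-92a, miR-20a/b at rank 3 (3201) and miR-19b at rank 5 (2958) belong to the miR-17-92 cluster and its paralogs, which promote B-cell growth and are known as oncogenic in B-cell lymphoma, while miR-142-3p is restricted to blood cells. miR-720, an entry whose sequence matches a transfer RNA fragment, ranked 4 with 3017. Ranks 6 to 10 were miR-21 (2643), let-7g (2302), miR-16 (2234), miR-15b (1927) and miR-15a (1599). Of the 20 highest miRNAs of Raji, 17 were among the 20 highest of U937, 15 of Jurkat and 11 each of Meg01 and K562. Over the miRNAs above both thresholds, Pearson's r of log2 normalized counts with Raji was 0.917 for U937 (103 miRNAs), 0.877 for Jurkat (106), 0.776 for Meg01 (97) and 0.762 for K562 (99). These correlations are across miRNAs that share probes and lanes and describe these 5 samples.

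Raji exceeded all 4 other lines by over 2-fold for 7 of the 139 miRNAs (5.04%). They were miR-21, miR-29a, miR-146a, miR-30a, miR-30e, miR-378 and miR-503. Only miR-21 and miR-29a had a mean of at least 100 raw counts. None of the 7 passed 2-fold against every line without scaling, or with scaling to the positive controls or to the housekeeping probes. With the total human counts miR-146a and miR-30e fell out and miR-193b came in, and with the threshold of Raji for all lines miR-30e fell out.

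Among the miRNAs of lymphocyte activation, miR-21, which represses the translation inhibitor PDCD4, had 2643 raw counts in Raji against 1588 in K562, 1486 in Meg01, 673 in U937 and 350 in Jurkat. It ranked 6 in Raji against 10 in Meg01 and K562, 20 in U937 and 38 in Jurkat, so that its place in the profile was higher in Raji before any scaling. The normalized count in Raji, 4172, was 14.8-fold that in Jurkat (95% interval 13.2 to 16.6), 5.94-fold that in U937 (5.46 to 6.48), 3.79-fold that in Meg01 (3.55 to 4.04) and 2.15-fold that in K562 (2.02 to 2.29). The difference from K562 depended on the scaling and was 0.01 on the log2 scale with the housekeeping probes.

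miR-146a, which restrains NF-kB signaling through IRAK1 and TRAF6, had 46, 53, 206, 147 and 34 raw counts in Meg01, Jurkat, Raji, U937 and K562. Raji was the highest and U937 the next, at a 2.12-fold difference (1.71 to 2.64), while K562 was not above its threshold and Raji exceeded it by at least 7.68-fold. miR-155, which is needed for the germinal center response, had 121, 36, 254, 253 and 32 raw counts in the same order. Raji was 13.8-fold over Jurkat (9.73 to 20.2), 4.47-fold over Meg01 (3.59 to 5.60) and at least 9.47-fold over K562. The 36 raw counts of Jurkat were at the edge of its threshold, and over the settings tried the log2 ratio ranged from 2.47 to 8.70 over Jurkat and from 2.15 to 4.54 over K562. With U937 the raw counts of miR-155 were 1 apart, and the normalized ratio of 1.52 (1.27 to 1.82) came from the scaling factors. On the log2 scale it turned to -0.36 with the positive controls and -0.43 with the housekeeping probes. The other 2 members of this list of 5, miR-146b-5p and the p53 target miR-34a, were not above the threshold in Raji, with 31 and 25 raw counts. miR-146a and miR-155 entered the comparison with K562 through Raji, since neither was above the threshold in K562, and no median over the list is given.

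**Figure D3:**
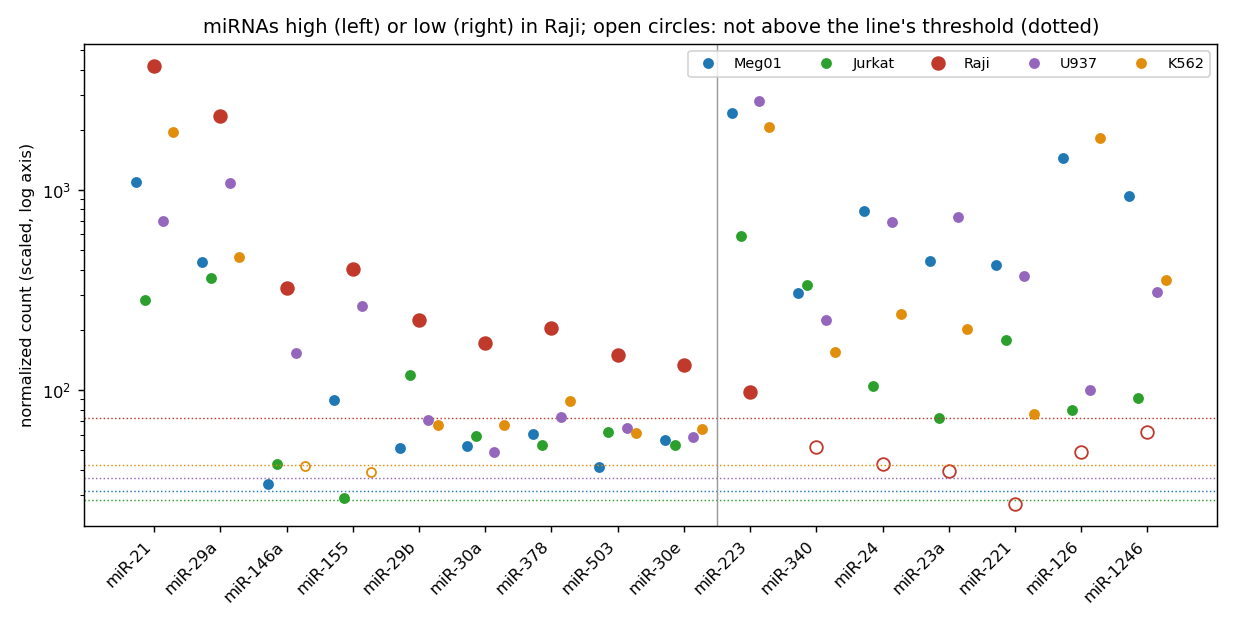
Normalized count (y axis, log) of 16 miRNAs in the 5 lines, 1 sample each, with miRNAs high in Raji left of the vertical line and those low in Raji right of it. Open circles are not above the threshold of their line, drawn as a dotted line of the same color. Raji is the highest point for each miRNA on the left, and on the right its only value above its threshold is that of miR-223.

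The miR-29 family, which targets collagens, DNA methyltransferases and MCL1, diverged within a single seed. The shared seed AGCACCA is shown with the sequences above, and the family is transcribed from a chromosome 7 locus (miR-29a at chr7:130876748-130876769, with a miR-29b copy) and a chromosome 1 locus (miR-29c at chr1:207801865-207801886, with the other miR-29b copy), both on the minus strand. miR-29a had 592, 451, 1483, 1040 and 380 raw counts in Meg01, Jurkat, Raji, U937 and K562. Raji was the highest line even in raw counts, 6.45-fold over Jurkat (5.80 to 7.18) and 2.16-fold over U937 (1.99 to 2.34) after normalization. miR-29c had 507, 1989, 242, 301 and 130 raw counts in the same order, and here Jurkat was the highest and exceeded Raji by 4.19-fold (3.67 to 4.81). miR-29b, the member encoded at both loci, lay between, with 142 raw counts in Raji and 147 in Jurkat. Raji was thus above Jurkat for miR-29a and below it for miR-29c in raw counts as well, and that contrast does not rest on the scaling.

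In the let-7 family, which represses LIN28, RAS genes and MYC, let-7d, let-7f, let-7g and let-7i split the lines into 2 pairs around Raji. let-7g had 305, 3804, 2302, 3219 and 58 raw counts in Meg01, Jurkat, Raji, U937 and K562. Raji was 51.2-fold over K562 (39.5 to 67.7) and 16.1-fold over Meg01 (14.3 to 18.2), whereas the differences from Jurkat and U937 were 1.19-fold (1.13 to 1.25) and 1.08-fold (1.03 to 1.14). let-7d was 22.9-fold and let-7f 9.04-fold over K562, and let-7i was at least 18.1-fold. Against Meg01 the ratios were 11.6 for let-7d, 6.46 for let-7f and 22.0 for let-7i. Of the 9 family members, 7 were compared, and 6 of these were higher than K562 and 4 higher than Meg01, against 20.9% and 42.4% of all compared miRNAs. let-7e was lower in Raji than in both, with 61 raw counts against 260 in Meg01 and 163 in K562. Against Meg01, let-7a and let-7c were within 2-fold, and let-7a had 1083 raw counts there against 774 in Raji. let-7b and miR-98 were not above the threshold in Raji, with 45 and 44 raw counts against 512 and 374 in Jurkat. miR-98 was also higher in U937, with 262 raw counts and a log2 ratio of Raji over U937 of at most -1.92, and it is not in the family medians, which cover the compared members. let-7c and let-7i were not above the threshold in K562 and entered that comparison through Raji. The median log2 ratio of the family was 2.69 over Meg01 and 3.18 over K562 and stayed at 1.60 or more under every scaling, while against Jurkat and U937 it was -0.24 and 0.15 and moved with the scaling. Without scaling and with the positive controls or the housekeeping probes it was -1.21, -1.11 and -1.21 against Jurkat and -0.45, -0.81 and -0.88 against U937.

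The miR-15/16 family, which targets BCL2 and cyclins, gave the largest ratio of the 4 comparisons with the normalization used here. miR-15a had 1599 raw counts in Raji, 3746 in Jurkat, 2902 in U937 and 860 in K562, but 30 in Meg01, which was below the Meg01 threshold. Raji was thus at least 80.9-fold higher than Meg01. The bound depends on the threshold and the scaling, and its log2 value of 6.34 was 5.12 with the threshold of Raji for all lines and 5.25 without scaling. In both settings the log2 ratio of Raji over K562 for let-7g was larger, at 5.65 and 5.31. The same held with the total human counts and with threshold subtraction. miR-16 had 895 raw counts in Meg01 and 2234 in Raji, a normalized ratio of 5.31 (4.92 to 5.75). miR-15a (chr13:50049167-50049188, minus strand) shares its cluster with 1 copy of miR-16 (chr13:50049027-50049048), and a second copy of miR-16 lies on chromosome 3 at chr3:160404754-160404775. miR-15b had 1927 raw counts in Raji and 2357 in Meg01 and did not pass 2-fold against any line, with log2 ratios from -0.13 to 0.80. Toward Jurkat and U937 the ratios of miR-15a, miR-15b and miR-16 were all within 2-fold. Over K562 the log2 ratios were 1.26 for miR-15a and 1.14 for miR-16. The family median over K562, 1.14, was 0.77 without scaling, 0.84 with the positive controls and 0.04 with the housekeeping probes.

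Of the 5 miR-30 miRNAs, miR-30a had 71, 73, 109, 47 and 55 raw counts and miR-30e had 76, 66, 85, 56 and 52 in Meg01, Jurkat, Raji, U937 and K562. Raji was the highest line in raw counts for both, and the nearest line was K562, at 2.56-fold for miR-30a (1.83 to 3.61) and 2.11-fold for miR-30e (1.48 to 3.04). miR-30b, the most abundant member with 458 raw counts in Raji and 376 to 581 elsewhere, passed 2-fold against no line. miR-30c was not above the threshold in Raji, with 39 raw counts against 47 to 74 elsewhere, and its ratios were entered at that threshold. The family's median log2 ratio, which includes miR-30c, was 1.25 over Meg01, 1.32 over Jurkat, 0.85 over U937 and 1.01 over K562. It turned to -0.18 over U937 and -0.08 over K562 with the housekeeping probes and to -0.11 over U937 with the positive controls. miR-378, which lies in an intron of PPARGC1B, had 129 raw counts in Raji against 66 to 81, and miR-503, listed here with the miR-15/16 miRNAs, had 95 against 50 to 77. These 4 miRNAs were weakly counted in every line, and the threshold of Raji was 45.9 raw counts. Just outside the 2-fold limit against every line were miR-302c at 1.94-fold and miR-29b at 1.89-fold.

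Raji was over 2-fold lower than all 4 other lines for 2 of the 139 miRNAs (1.44%). miR-223, which controls granulocyte maturation, had 3269, 732, 62, 2682 and 1684 raw counts in Meg01, Jurkat, Raji, U937 and K562. Its count in Raji was above the threshold, and every other line was far higher, by 28.6-fold in U937 (22.2 to 37.4), 24.8-fold in Meg01 (19.3 to 32.4), 21.0-fold in K562 (16.3 to 27.6) and 6.02-fold in Jurkat (4.64 to 7.94). It stayed lower than all 4 lines under each of the 12 other settings tried. miR-340, an intronic miRNA of RNF130, had 414, 417, 33, 216 and 127 raw counts in the same order. Raji was not above its threshold for miR-340 and was at least 4.64-fold lower than Jurkat, 4.24-fold lower than Meg01, 3.11-fold lower than U937 and 2.15-fold lower than K562. With scaling to the total human counts and with threshold subtraction its log2 ratio over the lowest other line was -0.82 and -0.64, and it no longer passed 2-fold against all 4. The next miRNA, outside the limit here, was miR-191 at 1.59-fold. It passed without scaling, with the positive controls and with the housekeeping probes, where 8, 8 and 10 miRNAs were lower than all 4 lines.

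The 28 miRNAs above the threshold in all other lines but not in Raji had 14 to 45 raw counts there. For 7 of them the lowest other line was above even the threshold of Raji, namely miR-340, miR-24, miR-1246, miR-301a, miR-126, miR-221 and miR-23a. For 10 of the 28, Raji was over 2-fold lower than at least 1 line, and over all 139 miRNAs 103 were lower than no line. The way the 28 were chosen itself favors lower values in Raji. The other miRNAs of the 28 were over 2-fold lower than no line, among them miR-424, with 19 raw counts in Raji against 79 to 129. Of the 28, 8 were counted as higher than Meg01 and 3 as higher than Jurkat, with Raji entered at its threshold.

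miR-23a and miR-24, transcribed together with miR-27a from a short stretch of chromosome 19 (miR-23a at chr19:13836595-13836615 and miR-24 at chr19:13836289-13836310, minus strand), are miRNAs of the myeloid lineage that oppose B-cell development. The same mature miR-24 is also encoded at chr9:95086064-95086085, and its counts cover both copies. miR-23a had 597, 90, 25, 701 and 165 raw counts and miR-24 had 1063, 130, 27, 663 and 196 in Meg01, Jurkat, Raji, U937 and K562. Raji was at least 10.1-fold lower than U937 for miR-23a and at least 10.9-fold lower than Meg01 for miR-24. Raji was also the lowest line for miR-23a and miR-24 in raw counts, and Jurkat was the next, against which neither passed 2-fold here. miR-24 was over 2-fold lower than all 4 lines without scaling, with the positive controls, with the housekeeping probes and with the threshold at the mean of the negative controls, at -1.51 to -1.30 on the log2 scale. miR-27a, with 12 raw counts in Raji, 10 in Jurkat and 24 in K562, was not above the threshold in any of these lines. miR-27b, of the chromosome 9 cluster, was above the threshold in Raji with 232 raw counts and within 2-fold of every line.

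miR-221, which represses KIT and CDKN1B, had 568, 220, 17, 355 and 62 raw counts in Meg01, Jurkat, Raji, U937 and K562, and Raji was at least 5.82-fold lower than Meg01, 5.12-fold lower than U937 and 2.45-fold lower than Jurkat. miR-222, with the same seed and from the same chromosome X locus, had 66, 67, 46, 98 and 29 raw counts, and Raji was within 2-fold of Meg01, Jurkat and U937 and at least 1.72-fold over K562, which was not above its threshold. miR-126, known from endothelial and megakaryocytic cells, had 1954, 99, 31, 96 and 1482 raw counts, giving at least a 25.0-fold lower level in Raji than in K562. Its log2 ratio of Raji over Meg01 was at most -4.32. miR-1246, an entry that also matches U2 small nuclear RNA, had 39 raw counts in Raji and 1264 in Meg01, at least a 12.9-fold difference. Leaving Jurkat out of the comparison, whose values were the nearest to Raji, added miR-1246, miR-23a and miR-24 to the miRNAs lower in Raji than every other line and raised their number to 5.

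**Figure D4:**
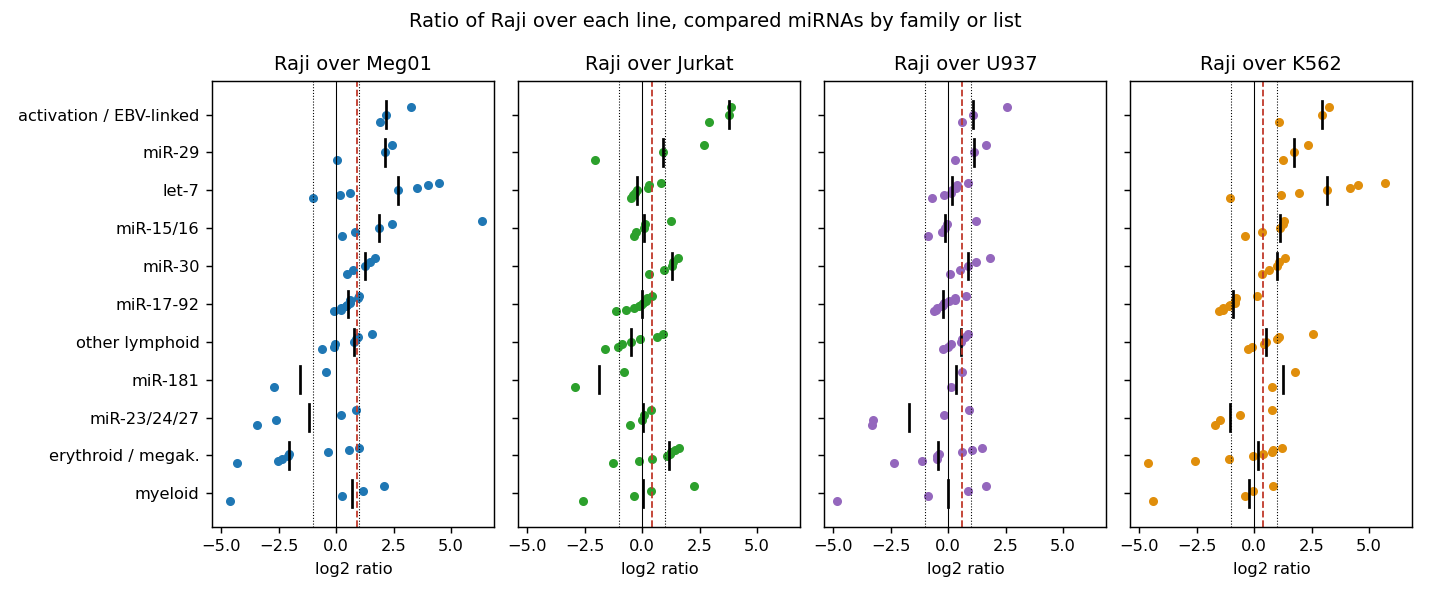
Log2 ratio of normalized counts of Raji over each line (x axis) for the compared miRNAs of 11 families or lists (y axis), with the list median as a black bar, the median of all 139 miRNAs as a red dashed line and 2-fold as dotted lines. Of the 7 let-7 points, 4 lie beyond 2-fold on the right for Meg01 and 6 for K562, with let-7e left of 0 in both panels. All 7 lie within 2-fold for Jurkat and U937, and the miR-23/24/27 points reach below -3 for Meg01 and U937.

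Of the miR-17-92 cluster and its paralogs, 10 of 11 miRNAs were above the threshold in Raji, and the 11 together made up 24.9% of its human counts. Their share was 25.8% in Meg01, 23.3% in Jurkat, 32.6% in U937 and 42.2% in K562. Raji was over 2-fold lower than K562 for 5 of the 10, including miR-20a/b at 2.58-fold (2.48 to 2.69) and miR-92a at 2.06-fold, which no longer passed with 3 of the alternatives, and within 2-fold of U937 for all 10, against 16.5% of all compared miRNAs lower than K562. The median log2 ratio over K562 was -0.94 and was negative under every scaling. miR-363, of the paralogous chromosome X cluster, had 30 raw counts in Raji and 732 in Jurkat.

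miR-181a, which sets T-cell receptor sensitivity and is also active in early B-cells, had 2417, 2551, 171, 238 and 64 raw counts in Meg01, Jurkat, Raji, U937 and K562. Raji was 7.61-fold lower than Jurkat (6.52 to 8.94) and 6.64-fold lower than Meg01 (5.68 to 7.80) and 3.45-fold higher than K562 (2.57 to 4.67). The ratio to U937, 1.09 (0.888 to 1.33), was within counting error. The probe shared by miR-181b and miR-181d, with 46 raw counts in Raji, was within 2-fold of every line, and miR-181c, with 20, was not above the threshold. Raji and U937 thus lay below Meg01 and Jurkat and above K562 in normalized counts.

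Among the other lymphocyte miRNAs, 7 of 10 were above the threshold in Raji, and 6 to 8 were in the other lines. miR-142-3p was 2.06-fold lower in Raji than in Jurkat (2.01 to 2.11), and miR-342-3p, known from mature lymphocytes, was 3.11-fold lower (2.53 to 3.85). miR-150, which is high in resting mature B- and T-cells and represses MYB, had 21 raw counts in Raji against 1030 in Jurkat and was not above the threshold. miR-9, which represses the plasma cell regulator PRDM1, had 115, 573, 157, 240 and 31 raw counts in Meg01, Jurkat, Raji, U937 and K562.

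Some of the largest ratios fell outside these families. Against Jurkat, miR-301a was at least 3.41-fold lower in Raji, with 45 raw counts against 307, and miR-193b was at least 4.76-fold higher, with 85 against 33. Against U937, miR-720 was 3.30-fold higher (3.10 to 3.52) and miR-7, with 78 raw counts in Raji, at least 3.38-fold higher. Against K562, miR-1274a and miR-1274b, which like miR-720 match transfer RNA fragments, were 16.2-fold (13.6 to 19.3) and 10.6-fold lower, and miR-125a-5p was at least 5.91-fold lower.

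The label of Raji as a B-lymphoblastic line can be checked against miRNA lists only, since the panel holds no B-cell messenger RNA. Over all 654 human miRNAs, 111 were above the threshold in Raji against 178 to 229 in the other lines, and the counts of each list below have to be read against these. Of 16 erythroid and megakaryocytic miRNAs, 4 were above the threshold in Raji against 13 in Meg01, 10 in K562, 8 in Jurkat and 6 in U937, and miR-144 and miR-451 stood at 25 and 18 raw counts. Of 5 myeloid miRNAs, 2 were above it, miR-223 and miR-193b, against 3 in Meg01 and 4 in each other line. Of 14 miRNAs of epithelium, liver, muscle and brain, 2 were above it, miR-200b with 48 raw counts and miR-206 with 81, against 2 in Meg01, 7 in Jurkat, 3 in U937 and 4 in K562. The miRNAs above the threshold in Raji and in no other line were miR-508-3p and miR-598, with 47 and 46 raw counts against a threshold of 45.9. These counts of members above the threshold do not set Raji apart as a B-cell line.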

How the data were processed

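The authors deposited, for each of the 5 lines, the raw counts of 753 nCounter probes (654 human miRNAs, 80 virus miRNAs, 8 negative and 6 positive controls, 5 housekeeping mRNAs). They also deposited a background-subtracted signal of the human probes, used here only as an alternative. The constant subtracted in it was the mean of the line's negative controls in Meg01, Raji and U937, but 16.25 against a mean of 22.75 in Jurkat and 22.75 against 20.25 in K562. Versions v1 and v2 of the kit and the nSolver software are named in the methods; which version ran these samples is not given in the sources used here. Raw counts were scaled and thresholded as described above, without subtraction. Exact Poisson intervals were computed for counts and intervals of ratios from the binomial distribution of 1 count given the sum of both (Python 3.11.15, scipy 1.17.1), and cover counting error only. The calculations were tested on simulated data. Named miRNAs were the 10 highest of Raji, those beyond 2-fold against all 4 lines, those above threshold in Raji only, up to 10 above it in the 4 others only, the 5 largest ratios each way per comparison, and members of 12 lists. The members and lists were chosen with earlier results of these data known. Of the panel's names, 547 matched a RefSeq miRNA. Names of 2 probes are cut short in the raw files and were completed from the deposited table. Alternatives were 4 other scalings, no scaling, 3 other thresholds, 2 filters chosen after seeing the data, subtraction, the deposited signals, and leaving out each other line.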

Additional observations from a re-analysis of the deposited data

Results flagged for a closer look

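In data outside the comparison of human miRNAs, 16 of the 34 probes for EBV miRNAs were above the threshold of Raji, and 9 of the 34 also had a raw count interval above that of every other line. For 4 of the 16, another line had as many raw counts or more, for example 183 against 113 for BART9. Summed over all 34 EBV probes, Raji had 2385 raw counts against 1267 to 1446 in the other lines, and over the 46 probes for other viruses 1161 against 1003 to 1175. Of those 46 probes, 0 had an interval above every other line while above the threshold of Raji.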

How the results depend on the processing

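No paired analysis was possible because each line has 1 sample. Numbers of miRNAs higher in Raji are given for Meg01, Jurkat, U937, K562 and all 4 lines in that order, where they moved by over 1.5 times from 59, 35, 27, 29 and 7. Higher miRNAs numbered 11, 5, 7, 12 and 0 without scaling, 14, 6, 1, 13 and 0 with the positive controls, 20, 5, 1, 8 and 0 with the housekeeping probes, 89, 59, 54, 47 and 19 with the deposited signals, and 236, 183, 97, 60 and 15 with the threshold at the mean of the negative controls, which admits 434 miRNAs. Keeping only miRNAs with a mean of at least 100 raw counts, a filter chosen after seeing the data that leaves 67 of the 139, gave 16, 11, 6, 15 and 2. The total human counts gave 26 for Meg01, 17 for U937 and 47 for K562, and the threshold of Raji used for all lines 22, 11 and 10 for Meg01, Jurkat and U937. Subtracting the threshold gave 48 for K562 and 16 for all 4 lines. It enters undetected miRNAs at the threshold, above weak detected ones after subtraction. Lower miRNAs, 15, 12, 7, 23 and 2, became 36, 33, 27, 41 and 11 with subtraction and 24, 42, 40, 48 and 10 with the housekeeping probes. They numbered, for Meg01, Jurkat, U937 and all 4 lines (the number for K562 stayed within 1.5 times), 32, 42, 24 and 8 without scaling, 28, 36, 39 and 8 with the positive controls, and 24, 20, 15 and 4 with the threshold at the mean of the negative controls. The total human counts gave 11 for U937 and 1 for all 4 lines, without miR-340, which also left the lower miRNAs with subtraction, at -0.82 and -0.64 on the log2 scale. Leaving out Jurkat gave 11 higher and 5 lower than the other lines, and leaving out K562 13 higher. The log2 ratio of miR-30e over the highest other line, 1.08, was -0.0197 with the housekeeping probes. That of miR-92a over K562, -1.04, was -0.75 with the total human counts, -0.998 with the 100 highest miRNAs of each line and -0.87 with the deposited signals. miR-223 was lower than all 4 lines in every setting, at -4.46 to -2.59 on the log2 scale. The cause of these changes was not tested. As an example of the precision at this depth, the 62 raw counts of miR-223 in Raji have an interval of 47.5 to 79.5.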
